A study of Mus musculus with 6 samples.

Results

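The antiviral interferon-stimulated effector genes are a named set of 35 genes, among them Isg15, the Ifit, Oas and Mx families, Ifitm3, Bst2 and Irf7. They were taken from the count table by their symbols. All 35 were among its 56734 symbols, and all 35 were among the 17718 genes with enough reads to be tested. Their counts ran from 177 to 30269 per library, so none rested on a handful of reads. The libraries hold polyadenylated RNA of B16-OVA cells, mouse melanoma cells engineered to carry the model antigen ovalbumin, grown in plain culture medium with serum and antibiotics. There were 3 libraries of Ythdf2-KO cells, which carry a knockout of the gene for the m6A reader YTHDF2, and 3 libraries of WT cells. The sample titles tag these groups gY2 and gNC, tags that the labels do not explain, so whether the WT cells had been through the same editing steps is not known. The labels state no interferon treatment, no virus and no other agent in either group, and they do not say whether the knockout line was 1 clone or whether the replicates of a group were separate cultures. The p-values therefore measure the spread between these libraries, which may be technical.

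Interferons are secreted proteins that warn cells of virus infection. They bind receptors on the cell surface, JAK kinases phosphorylate STAT proteins, and a complex of STAT proteins with IRF9 enters the nucleus and binds a short promoter element, the interferon-stimulated response element. The genes switched on in this way encode proteins that sense or destroy viral RNA, block translation, stop viruses at membranes, or mark other proteins with the ubiquitin-like ISG15. Many of them keep a basal level without infection. YTHDF2 binds mRNAs that carry N6-methyladenosine and promotes their decay.

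The members were also searched for 2 sequence motifs, the interferon-stimulated response element first. The set was named for interferon-stimulated genes, so a high share holding this element follows from that choice and is no test. The core of the response element, GAAA followed after any 2 bases by another GAAA, was looked for on both strands in 300 bases around each start site (250 before and 50 after), from the RefSeq promoter table of GRCm38.p6. This is an older build than the GRCm39 that the authors' notes name. The table held promoters for 27 of the 35 members. The core was found in 12 of these 27, or 44.4%, against 1079 of 27025 genes in the whole table, or 3.99%. The core of the gamma-activated site, TTCNNNGAA, which reads the same on both strands, was in 8 of the 27 members (29.6%) and in 9.55% of all genes. The 2 motifs were counted separately, and in Ifitm3 and Bst2 they share bases. Matching letters are a description and not evidence that a factor binds there. The promoters of 6 members are shown because their genes carry the core and yet behaved differently in the knockout: Isg15, Rsad2, Ifit1 and Ifitm3 fell, while Ifit3 and Ifitm2 did not pass the test. Each runs from 5′ to 3′ in the direction of its gene, with every match to the response-element core in capitals.
Isg15, chr4:156200769-156201068, minus strand: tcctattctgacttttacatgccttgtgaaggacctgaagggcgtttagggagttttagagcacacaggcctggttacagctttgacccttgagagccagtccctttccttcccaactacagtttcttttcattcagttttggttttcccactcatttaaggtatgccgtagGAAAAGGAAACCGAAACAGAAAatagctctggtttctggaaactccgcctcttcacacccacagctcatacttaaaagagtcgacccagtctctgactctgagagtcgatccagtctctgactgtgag
Rsad2, chr12:26456403-26456702, minus strand: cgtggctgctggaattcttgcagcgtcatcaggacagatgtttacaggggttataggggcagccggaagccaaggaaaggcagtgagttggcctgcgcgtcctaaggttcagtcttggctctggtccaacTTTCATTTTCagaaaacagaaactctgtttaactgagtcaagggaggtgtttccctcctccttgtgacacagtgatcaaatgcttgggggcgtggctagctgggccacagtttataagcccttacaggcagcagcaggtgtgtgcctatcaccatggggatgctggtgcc
Ifit1, chr19:34640639-34640938, plus strand: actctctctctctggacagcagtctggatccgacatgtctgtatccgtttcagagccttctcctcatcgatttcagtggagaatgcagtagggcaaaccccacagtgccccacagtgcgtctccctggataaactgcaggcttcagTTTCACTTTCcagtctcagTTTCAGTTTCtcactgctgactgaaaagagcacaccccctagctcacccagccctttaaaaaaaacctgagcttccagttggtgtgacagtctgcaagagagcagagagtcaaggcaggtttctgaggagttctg
Ifitm3, chr7:141010695-141010994, minus strand: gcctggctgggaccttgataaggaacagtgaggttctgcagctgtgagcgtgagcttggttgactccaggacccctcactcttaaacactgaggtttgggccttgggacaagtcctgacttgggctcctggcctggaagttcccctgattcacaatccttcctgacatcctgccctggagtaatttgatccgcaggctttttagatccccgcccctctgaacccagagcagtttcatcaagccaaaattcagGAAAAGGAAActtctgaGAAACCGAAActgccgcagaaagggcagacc
Ifit3, chr19:34583279-34583578, plus strand: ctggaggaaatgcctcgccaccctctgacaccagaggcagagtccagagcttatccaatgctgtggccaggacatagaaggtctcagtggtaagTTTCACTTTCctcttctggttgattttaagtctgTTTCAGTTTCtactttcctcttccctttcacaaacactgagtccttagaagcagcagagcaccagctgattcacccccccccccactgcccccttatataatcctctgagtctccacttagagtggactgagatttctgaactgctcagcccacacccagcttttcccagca
Ifitm2, chr7:140955912-140956211, minus strand: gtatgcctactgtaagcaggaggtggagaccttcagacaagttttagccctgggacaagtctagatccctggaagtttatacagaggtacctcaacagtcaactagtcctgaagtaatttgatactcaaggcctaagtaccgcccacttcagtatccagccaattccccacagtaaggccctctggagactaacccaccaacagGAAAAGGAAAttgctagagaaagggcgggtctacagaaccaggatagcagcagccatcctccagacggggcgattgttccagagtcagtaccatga
In Isg15 the capitals cover 3 overlapping matches in a row. The Ifit1 and Ifit3 promoters each hold 2 separate matches, read on the opposite strand, and Rsad2 holds 1 on that strand. Ifitm3 has 2 matches just after its start site, and Ifitm2, a close paralog on the same chromosome, has 1 before its own.

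Most members were lower in Ythdf2-KO cells, by small amounts. At a Benjamini-Hochberg adjusted p under 0.05 in edgeR's quasi-likelihood test, 27 of the 35 were lower in Ythdf2-KO and 2, Oas2 and Herc6, were higher. Of all tested genes, 25.8% were called lower and 24.1% higher in the same fit. The remaining 6 members, Ifit3, Oas3, Mx1, Mx2, Ifitm2 and Ifi35, did not pass. The median log2 fold change of the members was -0.21, against -0.0053 over all tested genes. For 27 members every Ythdf2-KO library lay below every WT library, an arrangement seen in 28.9% of tested genes. The members were chosen with earlier results of these libraries known, so these counts describe the set and do not test it.

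With upper-quartile scaling the calls were 21 lower and 3 higher among the members, against 20.3% and 29.5% of all genes tested. Of all calls, 59.2% were higher in Ythdf2-KO, compared with 48.3% under the TMM scaling used here. A change of scaling shifts all genes by nearly the same amount, so the members' median and the median of all genes move together. The gap between these medians, -0.20 on the log2 scale with each of 4 scalings, was thus almost fixed in advance and is no test. In bulk RNA, fewer cells expressing a gene and less of its RNA per cell cannot be told apart.

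The sizes ranged widely within the set. Ifi44 alone was at least 2-fold apart, and 6 members, all lower, were at least 1.5-fold apart: Ifi44, Isg15, Oasl1, Ifitm3, Parp14 and Rtp4. Another 16 called members differed by less than 1.25-fold. Libraries of a group lay close together, with a median coefficient of variation over the members of 1.99%, and differences of a few percent passed the test. Added up, the 35 members took 2564, 2539 and 2559 CPM (counts scaled to a common library size by TMM) in Ythdf2-KO replicates 1 to 3 and 3147, 3187 and 3166 CPM in the 3 WT libraries, each in the order of replicates 1 to 3, as are all triplets of values below. The Ythdf2-KO sum was 80.6% of the WT sum. Ifitm3 made up 25.7% of that difference, and without it the sums were 2251 to 2275 CPM in Ythdf2-KO and 2700 to 2731 CPM in WT.

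**Figure D1:**
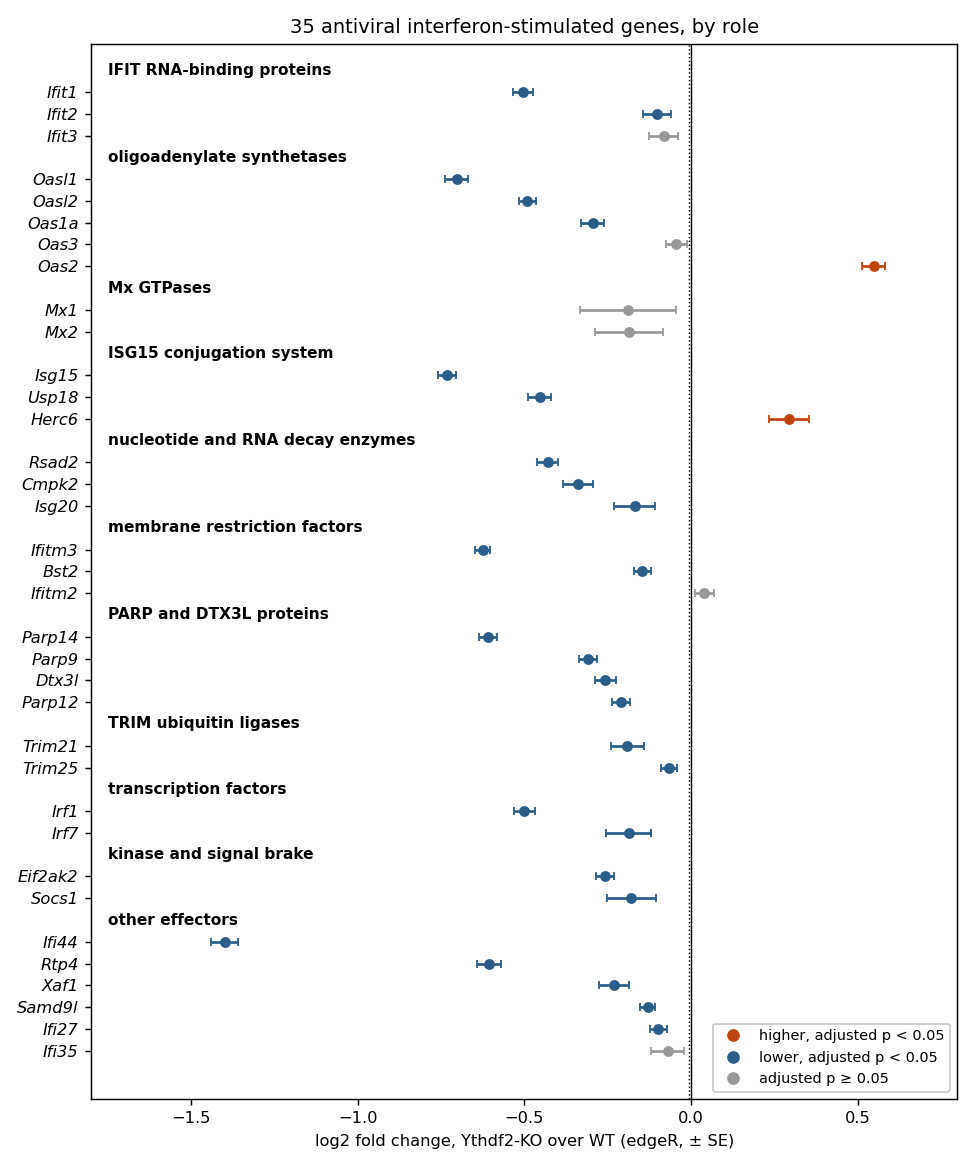
Log2 fold change of each of the 35 members, Ythdf2-KO over WT, with its standard error (edgeR, 3 libraries per group), grouped by role. The dotted line marks the median of all tested genes at -0.0053. Most points lie left of it, Ifi44 farthest at -1.40, while Oas2 at 0.55 and Herc6 at 0.29 lie to the right.

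The libraries differed in ways that touch every result below. Totals were 55660473 to 69497273 counts. Ythdf2 mRNA itself stood at 100.1, 101 and 104 CPM in the 3 Ythdf2-KO libraries and at 124, 124 and 125 CPM in the 3 WT libraries, a log2 fold change of -0.29 ± 0.026 (SE, n = 3 per group; edgeR adjusted p = 4.08e-13), so gene-level counts show a partial fall and say nothing of the protein. A fall was not particular to the targeted gene. Ythdf1 and Ythdf3 were lower too, with log2 fold changes of -0.25 and -0.12 (edgeR adjusted p = 8.30e-12 and 4.26e-04). All 7 melanocyte markers were detected in every library, and their summed level was 1401 to 1431 CPM in Ythdf2-KO against 237 to 241 CPM in WT, a difference whose part in the results on the members was not tested. Of 18 leukocyte markers, 3 had no count in any library, Klrb1c and Siglech among them, and 4 could be tested. Their sum was 12.9 to 14.3 CPM in Ythdf2-KO and 10.6 to 11.8 CPM in WT. Most of it was Lyz2, which rose (log2 fold change 0.28, edgeR adjusted p = 0.00212), and the sum without Lyz2 was 1.02 to 2.77 CPM in Ythdf2-KO and 1.16 to 1.51 CPM in WT. Adgre1, with 2, 2 and 4 counts in Ythdf2-KO and 22, 10 and 16 counts in WT, fell (edgeR adjusted p = 7.54e-04). Csf1r, too low to be tested, had 3, 4 and 8 counts in Ythdf2-KO and 10, 8 and 18 counts in WT. Of 8 fibroblast and endothelial markers, 7 were tested, 3 were lower and 1 was higher, beside 25.8% and 24.1% of all tested genes. Dcn fell to 41.5 ± 0.735 CPM in Ythdf2-KO against 487 ± 8.10 CPM in WT, Lum to 12.7 ± 0.609 CPM in Ythdf2-KO against 32.6 ± 0.887 CPM in WT, and Cdh5 to 1.36 ± 0.339 CPM in Ythdf2-KO against 2.002 ± 0.0436 CPM in WT (SD, n = 3). Pdgfrb rose to 505 ± 4.98 CPM in Ythdf2-KO against 340 ± 8.23 CPM in WT (SD, n = 3). The 8 summed to 559 to 568 CPM in Ythdf2-KO and 849.8 to 879 CPM in WT. The part of these markers in the results on the members was not tested. Ythdf2-KO replicate 3 held 74 counts of the leukocyte gene Ptprc, against 2 and 0 in Ythdf2-KO replicates 1 and 2 and 2 to 6 in WT. Without that library 25 members were called lower and 2 higher, beside 24.0% and 21.6% of all genes tested. The members' log2 fold changes then had a median of -0.24. Mitochondrially encoded genes took 1.57 to 1.82% of counts in Ythdf2-KO and 1.08 to 1.33% in WT. The nuclear RNA Malat1 was at 689, 722 and 576 CPM in Ythdf2-KO and at 431, 376 and 511 CPM in WT (log2 fold change 0.59, edgeR adjusted p = 0.0387), and the part of RNA quality in the results was not tested.

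The ISG15 system held both a strong fall and a rise. Isg15 encodes the ubiquitin-like protein that is attached to viral and cellular proteins and is also secreted. It stood at 75.8, 75.6 and 74.8 CPM in the 3 Ythdf2-KO libraries and at 122, 128 and 126 CPM in the 3 WT libraries. The groups were far apart and the Ythdf2-KO libraries were nearly identical. Isg15 fell 1.66-fold (log2 fold change -0.73 ± 0.028, SE, n = 3 per group; edgeR adjusted p = 2.64e-26), the largest change of a member after Ifi44. Usp18, the protease that removes ISG15 and also blocks signalling at the interferon receptor, fell 1.37-fold to 48.8 ± 1.44 CPM in Ythdf2-KO, against 66.9 ± 1.20 CPM in WT (SD, n = 3). Herc6, known in mouse as the main ligase that attaches ISG15, went the other way. It stood at 19.1, 19.3 and 18.7 CPM in the 3 Ythdf2-KO libraries and at 16.3, 14.9 and 15.4 CPM in the 3 WT libraries. Every Ythdf2-KO library lay above every WT library, and the log2 fold change was 0.29 ± 0.060 (SE; edgeR adjusted p = 4.60e-05). The ratio of Isg15 to Herc6 counts was 3.96, 3.92 and 3.99 in Ythdf2-KO and 7.49, 8.55 and 8.20 in WT.

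**Figure D2:**
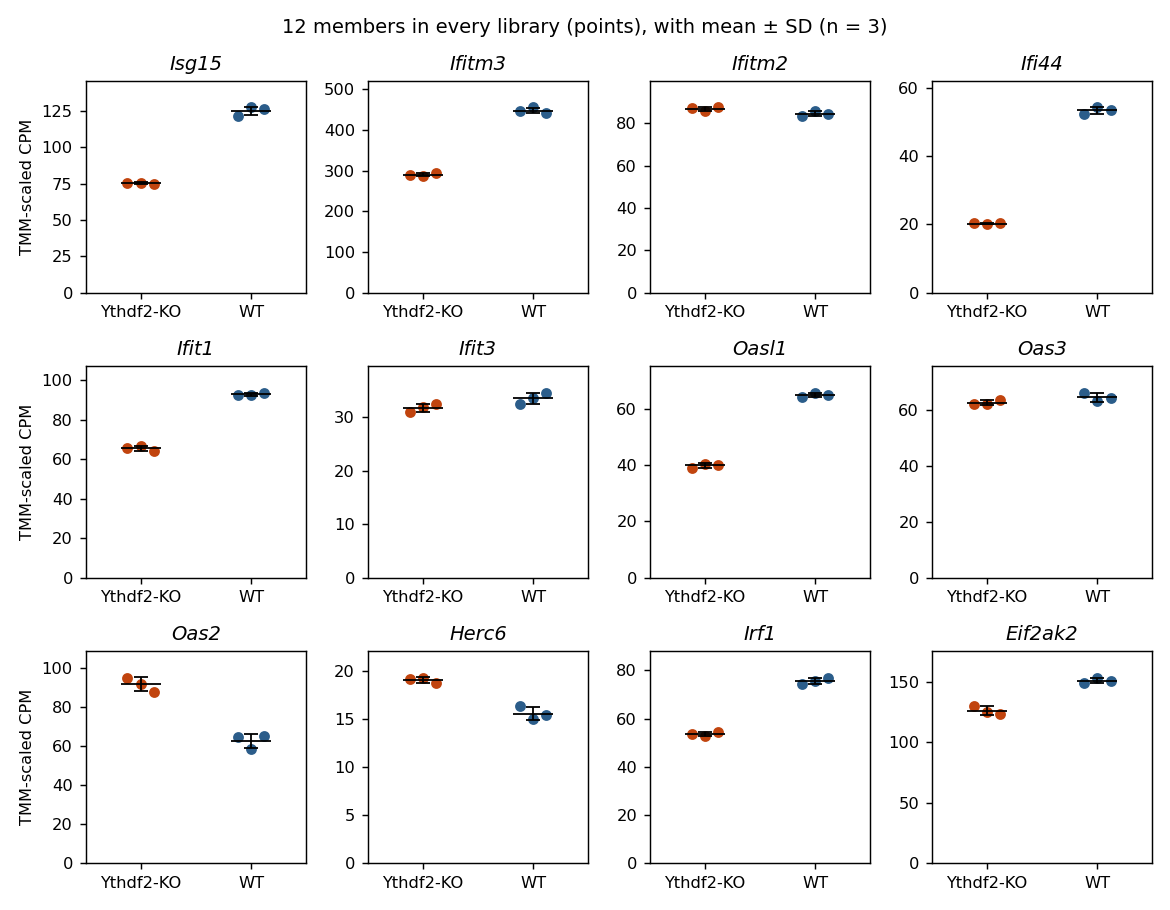
TMM-scaled CPM of 12 members in each library (points), with mean and SD of 3 libraries, Ythdf2-KO left and WT right, each axis from 0. Isg15, Ifitm3, Ifi44, Ifit1, Oasl1, Irf1 and Eif2ak2 show separate groups with Ythdf2-KO lower, Oas2 and Herc6 show Ythdf2-KO higher, and Oas3 and Ifitm2 overlap, while the Ythdf2-KO libraries of Ifit3 lie just below its WT libraries.

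The IFIT proteins bind viral RNA and stop its translation, and the 3 members lie side by side on chromosome 19 with close copies. Ifit1, whose protein recognises mRNA caps that lack host methylation, was at 65.8, 66.7 and 64.0 CPM in the 3 Ythdf2-KO libraries and at 92.7, 92.5 and 93.8 CPM in the 3 WT libraries. It fell 1.42-fold (log2 fold change -0.51 ± 0.030, SE; edgeR adjusted p = 3.75e-19). Ifit2 and Ifit3 changed far less. Ifit2 averaged 33.5 ± 0.601 CPM in Ythdf2-KO and 35.9 ± 0.675 CPM in WT (SD, n = 3; log2 fold change -0.10, edgeR adjusted p = 0.0412). Ifit3 averaged 31.7 ± 0.776 CPM in Ythdf2-KO and 33.5 ± 1.03 CPM in WT and did not pass (log2 fold change -0.082, edgeR adjusted p = 0.117). The 3 genes therefore did not move as a unit. The ratio of Ifit1 to Ifit3 counts, which no scaling can alter, was 2.13, 2.10 and 1.98 in Ythdf2-KO and 2.85, 2.76 and 2.71 in WT. The near-identical copy Ifit3b fell by 0.27 on the log2 scale (edgeR adjusted p = 7.45e-04), and reads may be divided unevenly between it and Ifit3. Ifit1 lies within the annotated span of Ifit1bl1, which had at most 31 counts in any library.

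The oligoadenylate synthetases went in opposite directions. These enzymes detect double-stranded RNA and make oligoadenylates that start RNA decay. Oas2 rose, at 95.1, 92.1 and 88.0 CPM in the 3 Ythdf2-KO libraries and 64.6, 58.7 and 64.9 CPM in the 3 WT libraries. All Ythdf2-KO libraries were higher than all WT libraries, a 1.46-fold difference (log2 fold change 0.55 ± 0.035, SE; edgeR adjusted p = 2.79e-15). Oas3, its neighbour on chromosome 5, was at 62.0, 62.2 and 63.6 CPM in Ythdf2-KO and 66.2, 63.1 and 64.3 CPM in WT. Those groups overlapped and Oas3 did not pass (log2 fold change -0.043, edgeR adjusted p = 0.289; 0.010 with upper-quartile scaling). Oas1a, in the same cluster, fell 1.23-fold, to 55.3 ± 2.62 CPM in Ythdf2-KO against 67.9 ± 0.828 CPM in WT (SD, n = 3; edgeR adjusted p = 6.76e-10). Its close copies Oas1g and Oas1b fell by 0.43 and 0.52 on the log2 scale, and reads may be shared among the 3. From one gene cluster, then, the same libraries gave a rise, a fall and a gene that did not pass.

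The OAS-like genes lie apart from that cluster and both fell. Oasl1, whose protein is known in mouse to block translation of Irf7 mRNA, was at 39.0, 40.5 and 40.0 CPM in the 3 Ythdf2-KO libraries and 64.2, 65.7 and 64.7 CPM in the 3 WT libraries. It fell 1.63-fold (log2 fold change -0.70 ± 0.035, SE; edgeR adjusted p = 8.28e-22). Oasl2 was at 127, 132 and 130 CPM in Ythdf2-KO and 182, 183 and 182 CPM in WT, a 1.41-fold fall. Both pairs of groups were well separated. The Oas2 to Oas3 count ratio was 1.53, 1.48 and 1.38 in Ythdf2-KO and 0.976, 0.931 and 1.01 in WT, and the Oasl1 to Oas3 ratio was 0.630, 0.651 and 0.629 in Ythdf2-KO and 0.970, 1.04 and 1.01 in WT.

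The factors that stop viruses at membranes included the most abundant member. Ifitm3, which blocks the fusion of entering viruses with endosomes, was at 289, 288 and 295 CPM in the 3 Ythdf2-KO libraries and at 447, 456 and 442 CPM in the 3 WT libraries. It fell 1.54-fold with wide separation of the groups (log2 fold change -0.63 ± 0.022, SE; edgeR adjusted p = 6.51e-28). Ifitm2, a close paralog from the same cluster on chromosome 7, did not follow: it was at 87.3, 85.6 and 87.4 CPM in Ythdf2-KO and 83.2, 85.6 and 84.4 CPM in WT. Its groups overlapped (log2 fold change 0.040, edgeR adjusted p = 0.270), although it was called higher with upper-quartile scaling (log2 fold change 0.094, edgeR adjusted p = 0.00423) and with only genes at a mean of 5 CPM or more (edgeR adjusted p = 0.0456). The Ifitm3 to Ifitm2 count ratio was 3.31, 3.36 and 3.37 in Ythdf2-KO and 5.37, 5.32 and 5.24 in WT. Bst2, also called tetherin, which holds budding virus particles on the cell surface, fell 1.11-fold, to 152 ± 2.72 CPM in Ythdf2-KO against 168 ± 3.73 CPM in WT (SD, n = 3; edgeR adjusted p = 2.44e-06).

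The ratios were taken for 6 pairs of members picked after their values were seen: Ifit1 with Ifit3 and Ifit2, Oas2 and Oasl1 with Oas3, Ifitm3 with Ifitm2, and Isg15 with Herc6. In each pair the 3 Ythdf2-KO ratios lay apart from the 3 WT ratios. An exact two-sided permutation test gave p = 0.1 for each and 0.1 after adjustment over the 6, which is the smallest p that 3 against 3 libraries allow. The changes in ratio ran from -1.03 for Isg15 with Herc6 to 0.59 for Oas2 with Oas3 on the log2 scale.

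Enzymes acting on nucleotides and RNA all fell. Rsad2 encodes viperin, which makes a chain-terminating nucleotide, and was at 55.6, 57.5 and 56.3 CPM in the 3 Ythdf2-KO libraries and at 74.9, 76.2 and 76.9 CPM in the 3 WT libraries. The groups were clearly apart, a 1.35-fold fall (log2 fold change -0.43 ± 0.032, SE; edgeR adjusted p = 9.06e-16). Cmpk2, its neighbour on chromosome 12, encodes a mitochondrial nucleotide kinase and fell 1.27-fold, to 28.4 ± 1.42 CPM in Ythdf2-KO against 36.0 ± 1.16 CPM in WT (SD, n = 3). Isg20, an RNA exonuclease, fell 1.12-fold, to 15.0 ± 0.367 CPM in Ythdf2-KO against 16.8 ± 0.386 CPM in WT (edgeR adjusted p = 0.0199).

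PARP family members and Dtx3l also all fell. Parp14, a mono-ADP-ribosyltransferase, was at 78.6, 79.9 and 80.0 CPM in the 3 Ythdf2-KO libraries and at 123, 122 and 119 CPM in the 3 WT libraries, a 1.53-fold fall (log2 fold change -0.61 ± 0.027, SE; edgeR adjusted p = 1.67e-23). Parp12, which inhibits translation, was at 115, 112 and 113 CPM in Ythdf2-KO and 132, 127 and 134 CPM in WT. Its groups did not overlap, though the fall was 1.16-fold. Parp9 and Dtx3l encode partners in a ubiquitin ligase complex, and the ends of their genes overlap in the annotation, so some reads could be assigned to either. They fell by similar amounts: Parp9 to 88.6 ± 0.563 CPM in Ythdf2-KO against 109.7 ± 2.77 CPM in WT, and Dtx3l to 71.7 ± 1.56 CPM in Ythdf2-KO against 85.7 ± 2.74 CPM in WT (SD, n = 3), with log2 fold changes of -0.31 and -0.26.

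The ubiquitin ligases of the TRIM family changed little. Trim21, the cytosolic antibody receptor, was at 24.0, 24.8 and 23.4 CPM in the 3 Ythdf2-KO libraries and at 27.8, 26.1 and 28.5 CPM in the 3 WT libraries (log2 fold change -0.19 ± 0.050, SE; edgeR adjusted p = 0.00107). Trim25, which promotes signalling by the RNA sensor RIG-I, was at 157, 158 and 153 CPM in Ythdf2-KO and 167, 164 and 160 CPM in WT. Neither pair of groups overlapped, but the difference for Trim25 was 1.05-fold (log2 fold change -0.067, edgeR adjusted p = 0.0225).

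Both interferon regulatory factors in the set were lower. Irf1, which binds many of these promoters and responds strongly to interferon gamma, was at 53.4, 52.9 and 54.3 CPM in the 3 Ythdf2-KO libraries and at 74.4, 75.8 and 77.0 CPM in the 3 WT libraries. Irf1 fell 1.41-fold (log2 fold change -0.50 ± 0.032, SE; edgeR adjusted p = 8.12e-18). Irf7, which drives later type I interferon genes, fell 1.14-fold, to 12.7 ± 0.829 CPM in Ythdf2-KO against 14.5 ± 0.116 CPM in WT (SD, n = 3; edgeR adjusted p = 0.0184). Eif2ak2 encodes PKR, the kinase that stops translation on double-stranded RNA. It was at 130.2, 125 and 124 CPM in Ythdf2-KO and 149, 154 and 151 CPM in WT, a 1.20-fold fall with groups apart (edgeR adjusted p = 8.25e-12). Socs1, the inhibitor of JAK kinases, averaged 11.1 ± 0.517 CPM in Ythdf2-KO and 12.6 ± 0.968 CPM in WT (SD, n = 3; log2 fold change -0.18, edgeR adjusted p = 0.0389). It was the only called member whose groups overlapped, since WT replicate 3, at 11.5 CPM, lay below Ythdf2-KO replicate 3, at 11.7 CPM.

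Ifi44, an interferon-induced cytoplasmic protein, stood out among the remaining effectors. It was at 20.3, 20.05 and 20.4 CPM in the 3 Ythdf2-KO libraries and at 52.4, 54.3 and 53.7 CPM in the 3 WT libraries. The libraries of each group were almost level and the groups 2.64-fold apart (log2 fold change -1.40 ± 0.042, SE; edgeR adjusted p = 2.47e-30). Rtp4, a chaperone of cell-surface receptors, fell 1.52-fold, to 41.1 ± 0.739 CPM in Ythdf2-KO against 62.5 ± 1.02 CPM in WT (SD, n = 3). Samd9l, a restriction factor of poxviruses, was at 282, 278 and 279 CPM in Ythdf2-KO and at 303, 312 and 302 CPM in WT. It was the second most abundant member by CPM and its fall was 1.09-fold with no overlap (edgeR adjusted p = 1.95e-06). Xaf1, which binds the apoptosis inhibitor XIAP, fell 1.17-fold and Ifi27 1.07-fold. Ifi27 lies inside the annotated span of its relative Ifi27l2a, which was below it in counts in every library. Ifi35 was at 26.8 ± 1.06 CPM in Ythdf2-KO and 28.1 ± 1.41 CPM in WT and did not pass (edgeR adjusted p = 0.248).

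The Mx GTPases, which trap viral nucleocapsids, were the least abundant members by CPM. Mx1 was at 2.93, 3.25 and 2.61 CPM in the 3 Ythdf2-KO libraries and at 3.38, 2.70 and 3.93 CPM in the 3 WT libraries. Mx2 was at 6.10, 5.18 and 5.20 CPM in Ythdf2-KO and at 6.64, 5.63 and 6.49 CPM in WT. Both overlapped between the groups and neither passed (log2 fold changes -0.19 ± 0.14 and -0.19 ± 0.10, SE; edgeR adjusted p = 0.293 and 0.133). C57BL/6 mice, the source of B16 cells, are known to carry a defective Mx1 allele, and reads per gene do not show the protein.

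**Figure D3:**
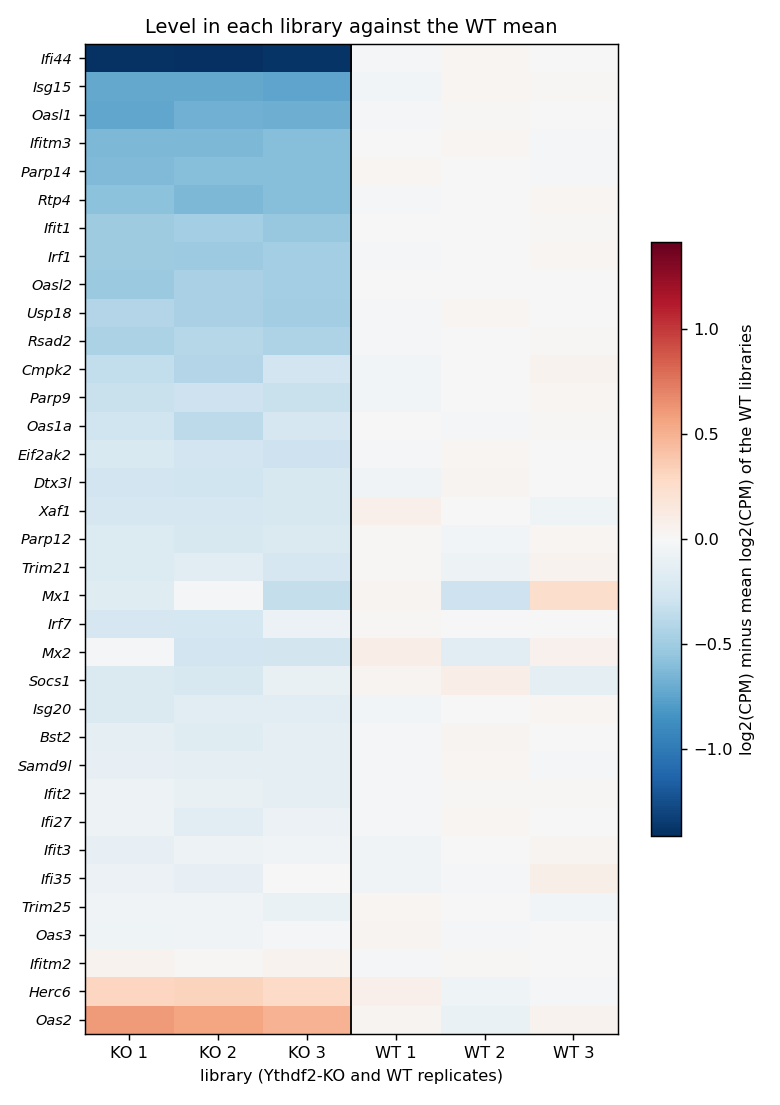
Each member's log2(CPM) in each library minus the mean of its WT libraries, ordered by log2 fold change, with the 3 Ythdf2-KO libraries left of the line and the 3 WT libraries right. Ifi44 at the top and Oas2 at the bottom keep 1 direction in all 3 Ythdf2-KO libraries, and Mx1 and Mx2 in the middle are uneven within both groups.

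Of the 27 members called lower, 6 had calls that depended on the settings. Ifit2 lost its call in 11 of 14 alternatives, Socs1 in 10, Trim25 in 9, Isg20 and Irf7 in 6 each and Ifi27 in 1, upper-quartile scaling (edgeR adjusted p = 0.142). Leaving out a single library was enough in several cases. For Ifit2, the edgeR adjusted p was 0.0896 without Ythdf2-KO replicate 2, 0.116 without Ythdf2-KO replicate 3, 0.149 without WT replicate 2 and 0.116 without WT replicate 3. For Socs1 it was 0.111 and 0.128 without Ythdf2-KO replicates 1 and 2, and 0.112 and 0.234 without WT replicates 1 and 2. For Trim25 the edgeR adjusted p was 0.115 without Ythdf2-KO replicate 3 and 0.2303 and 0.0904 without WT replicates 1 and 2. Isg20 had an edgeR adjusted p of 0.0803 without Ythdf2-KO replicate 1 and of 0.0509 and 0.0739 without WT replicates 2 and 3. Irf7 had 0.0836 and 0.0839 by edgeR without Ythdf2-KO replicates 1 and 2, and 0.05002 without WT replicate 1. Beside these 6, the calls of Oas3 and Ifitm2 are described above, and the other 27 members kept their direction and their side of the threshold in all 14 alternatives, or in 13 for Mx1, which the filter at 5 CPM removed.

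Levels can be compared between members only per length of transcript, so CPM were divided by the exon length of each gene in the GENCODE M21 annotation of GRCm38. That length merges the exons of all annotated transcripts of a gene. It can exceed the length of the transcript expressed, so the ranks depend on the annotation. On this scale Ifitm3 led in both groups, at 428 ± 5.72 CPM per kb in Ythdf2-KO and 661 ± 10.4 CPM per kb in WT (SD, n = 3). Bst2 was next, at 168 ± 3.02 CPM per kb in Ythdf2-KO and 186 ± 4.13 CPM per kb in WT. The third place differed: in Ythdf2-KO it belonged to Ifitm2, at 132 ± 1.55 CPM per kb, ahead of Isg15 at 99.7 ± 0.716 CPM per kb. In WT, Isg15 at 166 ± 3.98 CPM per kb was ahead of Ifitm2 at 129 ± 1.88 CPM per kb. Oas2 moved to rank 12 of 35 in Ythdf2-KO, against rank 22 in WT, and Ifi44 to rank 32 in Ythdf2-KO, against rank 27 in WT. Mx1 was last in both groups, at 0.775 ± 0.0848 CPM per kb in Ythdf2-KO and 0.882 ± 0.162 CPM per kb in WT. The members that fell by at least 1.5-fold had widely different levels per length, with Ifitm3 at the top and Ifi44 and Parp14 at 8.72 and 13.0 CPM per kb in WT.

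**Figure D4:**
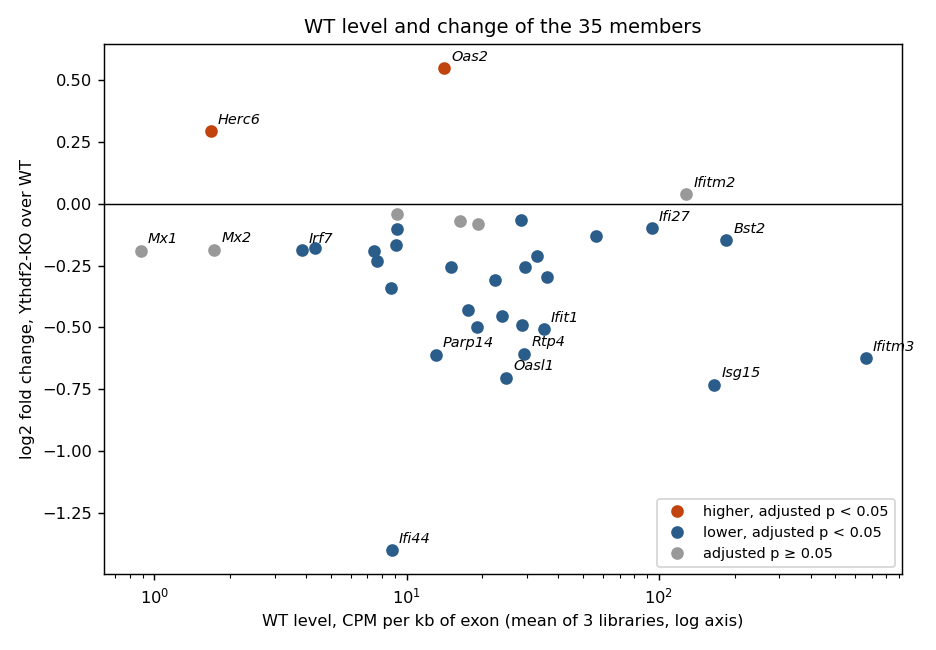
Log2 fold change (Ythdf2-KO over WT) of each member against its WT level in CPM per kb of exon on a log axis (mean of 3 libraries). Ifitm3, Isg15 and Ifi44, which all fell, had WT levels of 661, 166 and 8.72 CPM per kb, while Bst2 and Ifitm2, at 186 and 129 CPM per kb in WT, lie close to 0.

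The members were set side by side by the response-element core in the promoter window, and the difference between these groups was not tested. Over all tested genes, 25.8% were called lower and 24.1% higher. The 12 with a match had a median log2 fold change of -0.22 and a range of -0.73 to 0.040, with 9 lower, none higher and 3 not called. The 15 with a promoter in the table and no match had a median of -0.21 and a range of -1.40 to 0.29, with 13 lower, 1 higher and 1 not called. The 8 with no promoter in the table, Oas2 among them, had a median of -0.25 and a range of -0.61 to 0.55, with 5 lower, 1 higher and 2 not called.

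Other genes of the pathway were read from lists that earlier results of these data may have influenced. The interferons themselves gave almost no reads: of 21 interferon genes, 13 had no count in any library and none had enough to be tested. Ifnb1, the gene of interferon beta, had 0, 2 and 0 counts in Ythdf2-KO replicates 1 to 3 and 2, 14 and 13 counts in WT replicates 1 to 3. Among receptors, JAK kinases and STATs, 10 of 12 tested genes were lower, none was higher, and the median log2 fold change was -0.23. Beside this count and those of the lists below stand the shares over all tested genes, 25.8% lower and 24.1% higher. Ifnar1 and Ifnar2, the subunits of the type I receptor, fell by 0.34 and 0.60 on the log2 scale. Ifngr1 and Ifngr2, those of the interferon gamma receptor, fell by 0.55 and 0.56. Stat2 and Irf9, whose proteins act together in type I signalling, fell by 0.10 and 0.26, and Jak1 and Tyk2 by 0.15 and 0.14.

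Nucleic acid sensors and their adaptors were mixed, with 7 of 13 tested lower and 2 higher and a median log2 fold change of -0.19. The shares over all tested genes were 25.8% lower and 24.1% higher. Ikbke, a kinase that phosphorylates IRF3, and Zbp1, a sensor of Z-form nucleic acids, fell by 0.92 and 0.84, Cgas, the cytosolic DNA sensor, by 0.39 and Rigi, an RNA sensor, by 0.22 on the log2 scale. Sting1, the adaptor below cGAS, rose to 26.7 ± 1.28 CPM in Ythdf2-KO against 17.8 ± 1.46 CPM in WT (SD, n = 3; edgeR adjusted p = 5.01e-12). Ifih1, another RNA sensor, did not pass (log2 fold change -0.013, edgeR adjusted p = 0.808). Among other interferon regulatory factors and feedback genes, 6 of 9 tested were lower and 1 higher. Socs3, an inhibitor of JAK signalling best known downstream of IL-6 family cytokines, fell to 16.4 ± 1.14 CPM in Ythdf2-KO against 41.1 ± 0.962 CPM in WT, Irf2 and Ptpn11 fell by 0.25 and 0.20, and Irf3 did not pass (log2 fold change 0.024, edgeR adjusted p = 0.698). The gene that rose was Ptpn6, which encodes the phosphatase SHP-1, to 3.85 ± 0.338 CPM in Ythdf2-KO against 1.11 ± 0.247 CPM in WT (SD, n = 3; edgeR adjusted p = 1.78e-12).

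Beside the 35 members, the interferon-inducible GTPases of the GBP and IRG families had 13 of 14 tested genes lower and none higher, and a median of -0.92 on the log2 scale. Gbp2, Gbp3, Gbp5 and Gbp7 had log2 fold changes of -1.35, -1.23, -3.68 and -0.87. In a list of other interferon-stimulated genes, 34 of 46 tested were lower and 3 higher, and the median was -0.30 on the log2 scale. There Slfn2, Slfn8, Cxcl10 and Plscr1 fell by 3.57, 1.48, 1.45 and 1.07. The 3 that rose were Uba7, which encodes the activating enzyme for ISG15, Mov10 and Parp11, with log2 fold changes of 0.36, 0.24 and 0.14. Ube2l6, in the same list and also of the ISG15 system, fell (log2 fold change -0.44, edgeR adjusted p = 2.81e-14). Of 14 tested relatives of the members, 7 were lower and 2 higher. Among them Ifit1bl1, Ifi27l2a and Isg20l2 fell by 0.96, 0.32 and 0.14 on the log2 scale. Ifit1bl1 had only 12, 16 and 16 counts in Ythdf2-KO and 24, 27 and 31 counts in WT (edgeR adjusted p = 0.0453). The groups of Ifi27l2a overlapped. The 2 that rose were Trim12a and Trim12c, with log2 fold changes of 0.26 and 0.14. The difference in size between the lists was not tested.

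**Figure D5:**
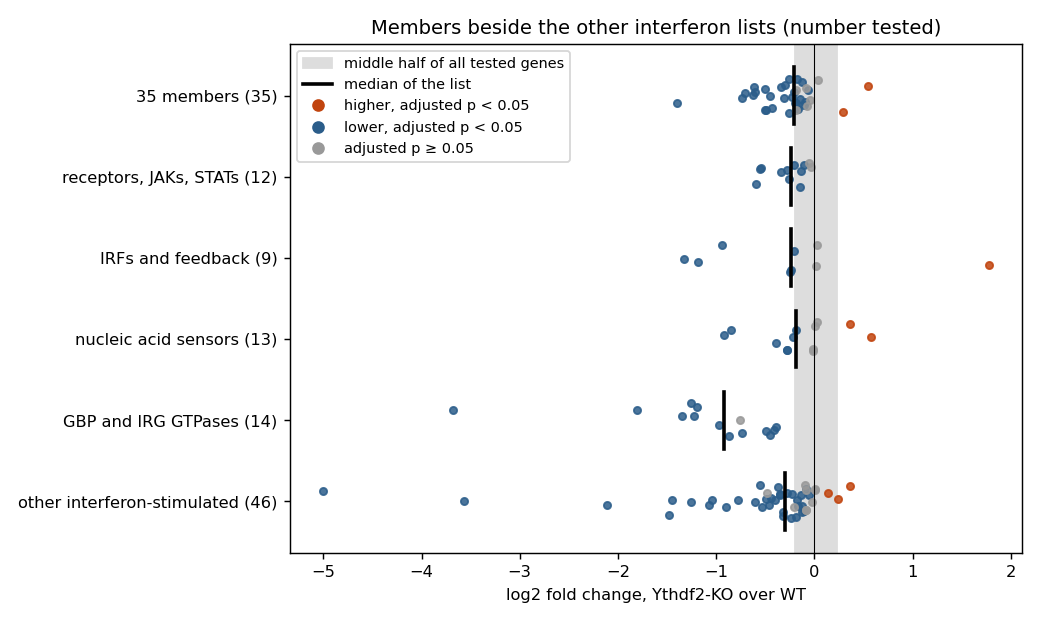
Log2 fold change (Ythdf2-KO over WT) of each tested gene in the members and in 5 other interferon lists, with the median of each list as a bar and the middle range of all tested genes, -0.20 to 0.23, shaded. The median is -0.21 for the members and -0.92 for the GBP and IRG GTPases, whose lowest point is Gbp5 at -3.68.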

How the data were processed

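The deposited table holds whole counts per gene symbol for 6 libraries. Per the submitters' processing notes, reads were handled with fastp 0.23.2, HISAT2 2.2.1 and featureCounts 2.0.6 on GRCm39, and the deposited counts are whole numbers with unequal totals, as unnormalized counts are. Strand and multimapping settings: not given in the sources used here. Therefore overlapping genes and close copies (Ifit, Oas1, Ifitm, Ifi27, Parp9 with Dtx3l) are uncertain.

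Columns were mapped to samples by the identifiers in the sample descriptions and to genotypes by the labels. In R 4.3.3 with edgeR 4.0.16, genes passing filterByExpr were scaled with TMM and tested with robust quasi-likelihood fits over the whole table, Benjamini-Hochberg adjusted over all genes tested and called under 0.05. CPM use the TMM-scaled library sizes, and 3 counts equal 0.0433 to 0.0540 CPM. The code was tested on simulated data. Alternatives were RLE and upper-quartile scaling, scaling without the 20 most abundant and mitochondrial genes, no filter, a mean of 5 CPM, the replicate block, DESeq2 1.42.0, limma-voom (limma 3.58.1), an adjusted p under 0.01 and leaving out each library.

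Per-library values are given for the members with the largest change and the highest CPM of each role, for those called higher or at least 2-fold apart, and for a few of their relatives, chosen after their values were seen. From each other list, the 4 genes with the smallest adjusted p and a preset group of regulators were named, apart from some relatives of the members, and the remaining names were picked with values in view. Some genes of the other lists are counted in them but not reported here by name. The members and lists were chosen with earlier results of these data known. Promoters came from RefSeq (GRCm38.p6), and the bases after the start of 29 of the 31 member promoters matched a GENCODE transcript of the same gene. Figures used Python 3.11.15 and matplotlib 3.10.9.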

Additional observations from a re-analysis of the deposited data

How the results depend on the processing

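The count of members called lower in Ythdf2-KO ran from 21 (upper-quartile scaling) to 26 (limma-voom) over the alternatives, against 27 as reported, and was 22 by DESeq2, 22 at an adjusted p under 0.01 and 23 to 25 without 1 library. The share of all genes tested that was called lower moved too, from 25.8% as reported. It was 20.3% with upper-quartile scaling, 25.6% with limma-voom and 18.7% by DESeq2. The lowest share was 12.5%, with no filter, where 22 members were lower. The highest was 33.5%, at a mean of 5 CPM, where 24 of the 34 members tested were lower. At an adjusted p under 0.01 this share was 21.7%, and without 1 library 22.7 to 24.0%. Members called higher numbered 2 or 3, with Ifitm2 as the addition. Of all genes tested, 14.1% (no filter) to 32.5% (a mean of 5 CPM) were called higher. The median log2 fold change of the members, -0.21 as reported, was -0.16 with upper-quartile scaling and -0.19 with no filter, and -0.24 to -0.19 without 1 library. Ythdf2 stayed lower past the threshold in all 14 alternatives. Oas3, not called as reported, changed sign with upper-quartile scaling (0.010). With the replicate number as a block, 25 members were lower and 2 higher, beside 24.9% and 23.3% of all genes tested. The calls of Ifit2 and Socs1 were lost there (edgeR adjusted p = 0.0588 and 0.0525). The labels do not say whether same-numbered libraries were prepared together. The correlations of their deviations from the group means were 0.011, -0.037 and -0.052, which cannot decide this. The calls of Trim25, Ifit2, Isg20, Socs1 and Irf7, which differed by 1.05- to 1.14-fold, were the ones most often lost. The cause of these shifts was not tested.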
